A study of Mus musculus with 9 samples.

Results

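The mitochondrial ribosome is made from RNAs of the mitochondrial genome and from proteins encoded in the nucleus, which are synthesised in the cytosol and imported. The genes of those proteins carry the symbol stem Mrpl (large subunit) or Mrps (small subunit) followed by a digit, and this symbol rule chose the genes described here. It found 75 genes, 47 Mrpl and 28 Mrps, among the 16110 named genes of the arrays. They were covered by 106 probes, and a gene with several probes was represented by its brightest probe, judged by the 9-array mean. The rule itself uses the symbol alone.

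The 9 samples, each hybridised to 1 bead array, were mouse ntESCs (nuclear-transfer embryonic stem cells), pluripotent cells derived from embryos made by moving a somatic nucleus into an enucleated egg. Terc encodes the RNA that telomerase copies onto chromosome ends, and the comparisons ask how expression differed with its dose. The groups were Terc+/+, Terc+/- and Terc-/- with 3 arrays each, and strain C57BL/6, LIF-containing serum-free medium and a layer of mitomycin-C-treated embryonic fibroblasts (MEFs), removed before lysis, were shared by all. The labels give the repeats as biological, but not whether they were separate lines, so p-values measure the spread between these samples, which may be partly technical.

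The mitochondrial ribosome translates the few proteins that the mitochondrial genome encodes, all of them membrane subunits of the respiratory chain and ATP synthase. The small subunit binds the messenger and holds the decoding centre, and the large subunit forms the peptide bond and threads the product towards the inner membrane. Many of its proteins have bacterial homologues, and others are found only in mitochondria. Many pluripotent stem cells rely strongly on glycolysis and have small mitochondria sparse in cristae. The metabolism of these ntESCs was not measured here.

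The symbol does not always give the place of the protein. The products of Mrps30 and Mrps18a sit in the large subunit, and the product of Mrps36 has been assigned to the alpha-ketoglutarate dehydrogenase complex. By placement, 49 genes encoded large-subunit and 25 small-subunit proteins. The 75 genes lay on 17 chromosomes, with 11 on chromosome 11 and 8 on chromosome 17 in the RefSeq annotation of GRCm38.p6.

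Some facts of the arrays come before the results. The values are log2 signals, and the table's lowest value was 5.11. No probe was paired with Terc (0), so the genotypes rest on the labels. The 36 pairs of arrays correlated between 0.953 and 0.995 across all features, which are not independent replicates. Of 16 pluripotency markers 14 were measured, and Pou5f1, Esrrb and Sox2 averaged 12.04, 12.87 and 9.58, far above that floor. Lin28a was the 1 of the 14 called in Terc-/- against Terc+/+ (log2 fold change 0.80, adjusted p = 0.0458). It was not called in settings that called 0 features. These were the replicate block, trend and robust settings, a mean above 6 and the compared genotypes only. The fits without Terc+/+ replicate 1 or 2, Terc+/- replicate 2 or 3, or any 1 Terc-/- array also called 0 features. Of the 14 markers 6 had a higher and 8 a lower mean in Terc-/-. Without overlap, 4 were higher (7.49% of all features) and 3 were lower (7.43%). The lower ones were Esrrb (-0.47), Klf2 (-0.73) and Klf4 (-0.75). The 6 with a higher mean were Lin28a, Tdgf1, Sall4, Dppa4, Dppa5a and Pou5f1. Without Terc+/+ replicate 3, Tdgf1 and Sall4 differed by 0.44 and 0.36, and Pou5f1 by -0.34.

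Transcripts of fibroblast markers differed between arrays of the same genotype, and the cells that gave them were not identified. Over 22 measured of 24 listed feeder markers, an array's score was the mean log2 deviation from each marker's 9-array mean. The scores were -0.05, 1.11 and -1.46 in Terc+/+ replicates 1 to 3, 0.93, -0.77 and -0.95 in Terc+/-, and -0.20, 0.12 and 1.28 in Terc-/-. The lowest score belonged to Terc+/+ replicate 3, and each genotype spanned more than the genotype means differed. In Terc-/- against Terc+/+ 20 of the 22 markers had a higher mean (median 0.51), in Terc+/- against Terc+/+ 17 had a lower mean (median -0.13), and in Terc-/- against Terc+/- all 22 had a higher mean (median 0.61), with 0 called in each. None was at zero, and their 9-array means ran from 5.55 for Postn, near the floor, to 12.17 for Bgn. The part of fibroblast RNA in the differences below was not tested beyond a fit with the score as a covariate.

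Terc+/+ replicate 3 often held an extreme value among the mitochondrial ribosomal protein genes, as it did over all features. It gave the highest of the 9 values for 24 of them (32.0%, against 23.5% of all features) and the lowest for 17 (22.7%, against 20.9%). Terc+/- replicate 1 gave the lowest for 16 (21.3%, against 11.1%) and Terc+/+ replicate 1 for 13 (17.3%, against 8.72%). For several printed differences of these genes from Terc+/+, the value without Terc+/+ replicate 3 is given as well.

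Promoter sequences from RefSeq (GRCm38.p6, 250 bases before to 50 bases after a gene's start, 5′ to 3′ on the gene's strand) were found for 66 of the 75 genes. Those named here without an entry are Mrpl13, Mrpl4, Mrps34, Mrps35, Mrpl38 and Mrpl19. They were searched on both strands for the letters of 3 factors known to act on nuclear genes of mitochondrial proteins. These were CCGGAAG (ETS family, which includes GABP), CGCATGCG (NRF1) and AAGATGGCG (YY1), together with the E box CACGTG. The ETS letters stood in 25 of 66 genes (37.9%), against 12.9% of 17491 coding genes and 8.86% of all 32851 promoters. The YY1 letters stood in 8 genes (12.1%, against 2.14% of coding genes and 1.40% of promoters). The NRF1 letters stood in 7 (10.6%, against 2.77% and 1.87%). The E box stood in 4 (6.06%, against 8.91% and 7.15%), so it was not more frequent. At least 1 of the first 3 stood in 35 genes (53.0%), against 16.7% of coding genes. The shares in 53 cytosolic ribosomal protein genes were 39.6% for ETS, 7.55% for YY1 and 3.77% for NRF1. The ETS share was thus about as high in genes of the other ribosome. The median GC content was 58.0% in the 66 genes and 56.3% in coding genes. Such a match is a description of letters and not of a bound site.

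**Figure D1:**
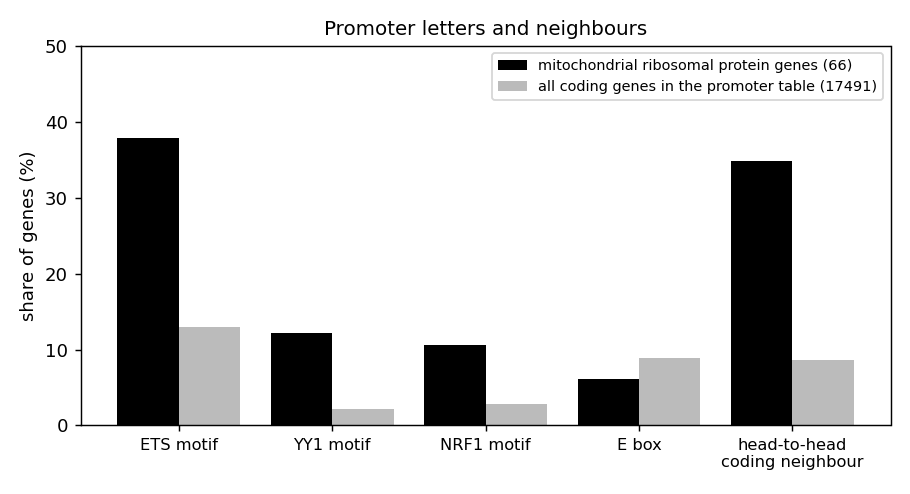
Bars give the share of genes (%, linear axis from 0) whose 300-base promoter window holds each motif on either strand, and the share with a coding gene starting within 1000 bases on the opposite strand, for 66 mitochondrial ribosomal protein genes (black) and 17491 coding genes (grey). The black bars are higher for ETS (37.9% against 12.9%), YY1, NRF1 and the neighbour, and lower for the E box.

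The following windows show examples with several motifs and windows of genes that led the comparisons. Mrpl17 (chr7:105811038-105811337, minus strand) and Mrpl22 (chr11:58171414-58171713, plus strand) hold both the ETS and the NRF1 letters, as does Mrps18b, and Mrps18a (chr17:46110754-46111053, plus strand) and Mrps27 (chr13:99344536-99344835, plus strand) the ETS and the YY1 letters. Mrpl36 and Mrpl37, not shown, hold the E box and the YY1 letters. In Mrps18a and Mrps27 the YY1 letters begin at positions 11 and 14 from the start, and in Mrpl22 the NRF1 letters begin at -32. Mrpl20 (chr4:155802628-155802927, plus strand), which had the smallest p on the higher side among genes with an entry, holds the E box only, and Mrps15 (chr4:126046678-126046977, plus strand), first among the lower genes, and Mrpl47 (chr3:32736706-32737005, minus strand) hold none of the 4. Capitals mark the motif letters, and a motif on the other strand appears as its reverse complement.
Mrpl17: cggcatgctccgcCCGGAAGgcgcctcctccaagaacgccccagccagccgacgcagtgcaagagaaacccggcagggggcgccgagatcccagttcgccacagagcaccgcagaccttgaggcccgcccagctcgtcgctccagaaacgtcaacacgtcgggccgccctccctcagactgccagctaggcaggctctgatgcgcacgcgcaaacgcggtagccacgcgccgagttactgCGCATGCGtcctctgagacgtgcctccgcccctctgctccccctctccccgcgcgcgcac
Mrpl22: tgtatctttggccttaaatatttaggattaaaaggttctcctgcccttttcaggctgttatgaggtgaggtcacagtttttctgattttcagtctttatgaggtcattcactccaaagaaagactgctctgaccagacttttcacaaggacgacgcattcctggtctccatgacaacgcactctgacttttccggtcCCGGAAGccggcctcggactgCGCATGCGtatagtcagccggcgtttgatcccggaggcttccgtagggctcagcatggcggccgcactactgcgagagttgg
Mrps18a: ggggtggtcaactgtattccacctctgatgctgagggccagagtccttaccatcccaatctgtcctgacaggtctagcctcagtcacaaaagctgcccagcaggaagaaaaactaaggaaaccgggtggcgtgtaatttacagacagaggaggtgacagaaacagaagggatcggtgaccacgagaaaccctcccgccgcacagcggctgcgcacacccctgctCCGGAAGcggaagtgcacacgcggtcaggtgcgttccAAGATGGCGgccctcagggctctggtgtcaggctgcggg
Mrps27: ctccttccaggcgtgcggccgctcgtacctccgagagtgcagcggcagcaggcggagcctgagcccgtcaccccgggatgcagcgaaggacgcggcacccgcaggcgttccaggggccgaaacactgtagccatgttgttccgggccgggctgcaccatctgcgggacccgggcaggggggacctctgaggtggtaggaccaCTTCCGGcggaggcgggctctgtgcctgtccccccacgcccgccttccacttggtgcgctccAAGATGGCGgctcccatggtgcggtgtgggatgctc
Mrpl20: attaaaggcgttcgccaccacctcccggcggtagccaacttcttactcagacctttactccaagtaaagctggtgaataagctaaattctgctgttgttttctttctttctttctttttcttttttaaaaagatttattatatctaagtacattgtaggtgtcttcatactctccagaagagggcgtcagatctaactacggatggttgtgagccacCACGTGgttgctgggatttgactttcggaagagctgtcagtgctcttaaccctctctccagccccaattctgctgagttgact
Mrps15: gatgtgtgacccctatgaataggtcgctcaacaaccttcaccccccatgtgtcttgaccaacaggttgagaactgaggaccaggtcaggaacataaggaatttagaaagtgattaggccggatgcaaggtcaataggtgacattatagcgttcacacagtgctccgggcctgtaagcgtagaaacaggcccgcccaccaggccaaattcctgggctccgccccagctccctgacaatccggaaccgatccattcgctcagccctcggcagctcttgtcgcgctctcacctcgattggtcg
Mrpl47: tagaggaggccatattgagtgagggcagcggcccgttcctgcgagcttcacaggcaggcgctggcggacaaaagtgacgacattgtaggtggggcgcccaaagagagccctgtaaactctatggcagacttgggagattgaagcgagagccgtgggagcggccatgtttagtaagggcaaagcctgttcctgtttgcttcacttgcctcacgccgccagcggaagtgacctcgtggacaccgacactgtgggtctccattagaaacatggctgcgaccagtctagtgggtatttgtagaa

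No mitochondrial ribosomal protein gene differed between genotypes past the threshold, an adjusted p under 0.05 in limma over all 18666 features. In Terc-/- against Terc+/+, 0 of the 75 were called, where 0.0536% of all features were (10). The smallest adjusted p was 0.129, for Mrpl13. At an unadjusted p under 0.05 there were 8 genes with a higher mean in Terc-/- (5.3% of all features) and 3 with a lower mean (5.31%). Over the 75 genes the median log2 fold change was 0.03, beside 0.0048 over all features, and 50 of the 75 lay within 0.25 of 0 (66.7%, against 77.4% of all features). In bulk samples, fewer cells of a type and less RNA per cell cannot be told apart.

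The arrays of the groups did not overlap for 9 genes that were higher in Terc-/- than in Terc+/+ (7.49% of all features) and for 7 that were lower (7.43%). The higher ones were 7 Mrpl genes with Mrps31 and Mrps14, and the lower ones 4 Mrps genes with Mrpl4, Mrpl37 and Mrpl46. Mrps14 averaged 5.60, near the floor. Among the 69 genes with a mean above 6, the counts were 8 and 6. The counts of higher and lower genes differed between the name groups. In Terc-/- the mean was higher for 29 of 47 Mrpl genes (median 0.05) and for 11 of 28 Mrps genes (median -0.04). By placement it was higher for 29 of 49 large-subunit (median 0.05) and 11 of 25 small-subunit genes (median -0.04). This difference between the name groups was not tested.

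In Terc+/- against Terc+/+, 0 of the 75 genes were called, and 0.0% of all features were. The smallest adjusted p among the genes was 0.318. At an unadjusted p under 0.05, 10 had a higher mean in Terc+/- (4.73% of all features) and 4 a lower mean (3.86%). The median over the 75 genes was -0.02. This comparison shares its Terc+/+ arrays with the one before, so their values stand side by side without a measure of their likeness. The mean was higher in Terc+/- for 24 of 47 Mrpl genes (median 0.02) and for 11 of 28 Mrps genes (median -0.04). By placement it was higher for 24 of 49 large-subunit (median -0.0056) and 11 of 25 small-subunit genes (median -0.0218). Without overlap, 8 genes were higher (7.29% of all features) and 2, Mrps15 and Mrps35, were lower (5.3%).

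With both Terc-deficient genotypes against Terc+/+, 0 of the 75 genes were called, where 0.193% of all features were (36). The smallest adjusted p was 0.0901, again for Mrpl13. At an unadjusted p under 0.05, 11 had a higher mean (6.14% of all features) and 5 a lower mean (5.58%). All 6 Terc-deficient arrays lay above all 3 Terc+/+ arrays for 4 genes, Mrpl1, Mrpl13, Mrpl47 and Mrps31 (3.48% of all features). They lay below for 1, Mrps15 (2.88%).

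**Figure D2:**
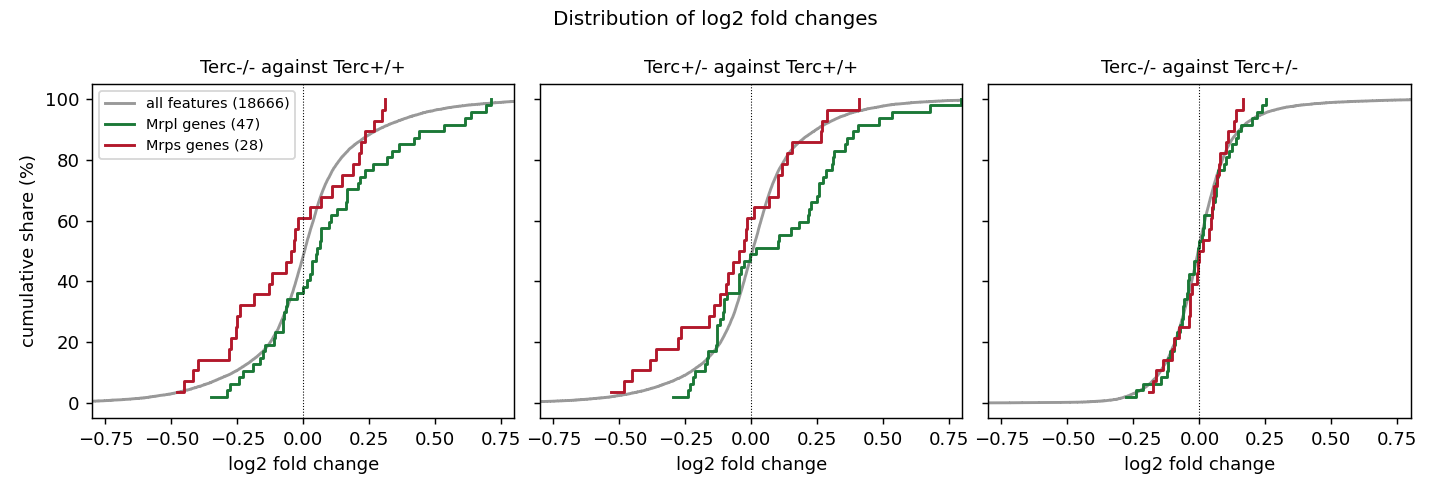
Cumulative share (%) of genes against the log2 fold change in 3 comparisons, for 47 Mrpl genes (green), 28 Mrps genes (red) and all 18666 features (grey), with the axis drawn to 0.8 on either side. The medians of Mrpl and Mrps are 0.05 and -0.04 in Terc-/- and 0.02 and -0.04 in Terc+/- against Terc+/+, and 73 of the 75 genes lie within 0.25 of 0 in Terc-/- against Terc+/-.

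Among large-subunit genes with a higher mean in the Terc-deficient cells, Mrpl13 had the smallest p. Its product is homologous to a bacterial protein that binds early in the assembly of the large subunit. Mrpl13 measured 11.22, 11.13 and 11.08 in Terc+/+, 11.50, 11.53 and 11.35 in Terc+/-, and 11.53, 11.72 and 11.50 in Terc-/-. All 6 Terc-deficient arrays were higher than the 3 Terc+/+ arrays, and the Terc+/- and Terc-/- arrays overlapped. The log2 fold change was 0.44 (SE 0.09, adjusted p = 0.129) in Terc-/- and 0.31 (SE 0.09, adjusted p = 0.318) in Terc+/-. A second, dimmer probe gave 0.59 and 0.32 for the same comparisons, and a probe near the floor gave 0.21 in Terc-/- and a value of opposite sign, close to 0, in Terc+/-.

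Mrpl20 encodes another protein with a bacterial homologue active in large-subunit assembly. It measured 10.77, 11.20 and 11.04 in Terc+/+, 11.44, 11.18 and 11.55 in Terc+/-, and 11.57, 11.70 and 11.65 in Terc-/-. The Terc-/- arrays lay above all 6 others, while Terc+/- and Terc+/+ overlapped by 1 array. The log2 fold change was 0.64 in Terc-/- (SE 0.13, adjusted p = 0.131, 1.55-fold) and 0.39 in Terc+/- (SE 0.13, adjusted p = 0.428). Without Terc+/+ replicate 3 the former was 0.65 (adjusted p = 0.0791). Leaving out 1 array gave 0.52 to 0.73 for Terc-/-, the lowest without Terc+/+ replicate 1, its lowest array.

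Mrpl47 encodes a protein near the exit of the tunnel through which the new chain leaves. It measured 9.73, 9.75 and 9.45 in Terc+/+, 10.24, 10.03 and 10.12 in Terc+/-, and 10.30, 10.31 and 9.92 in Terc-/-. No Terc-deficient array reached down to a Terc+/+ array. Against Terc+/+ the log2 fold change was 0.53 in Terc-/- (SE 0.13, adjusted p = 0.196) and 0.48 in Terc+/- (SE 0.13, adjusted p = 0.318). Its second probe gave 0.87 and 0.85. Without Terc+/+ replicate 3, its lowest array, the brightest probe gave 0.44 and 0.39.

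Mrpl1 encodes the protein of the mobile stalk beside the exit site for transfer RNAs. It measured 8.89, 8.17 and 9.16 in Terc+/+, 9.67, 9.30 and 9.28 in Terc+/-, and 9.41, 9.49 and 9.17 in Terc-/-. The groups did not overlap, but Terc-/- replicate 3 exceeded Terc+/+ replicate 3 only barely and the Terc+/+ arrays were spread widely (SD 0.51). Its log2 fold change was 0.61 in Terc-/- (SE 0.24, adjusted p = 0.422) and 0.68 in Terc+/- (SE 0.24, adjusted p = 0.466). Without Terc+/+ replicate 2, its lowest array, these were 0.33 and 0.39, and without replicate 3 they were 0.82 and 0.88. Its probes disagreed, with 0.29 and 0.12 for the second, and -0.25 and -0.26 for the dimmest, whose mean of 5.62 lay near the floor.

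Mrps31 was the small-subunit gene with the smallest p, and its product has no bacterial homologue. It measured 10.81, 10.84 and 10.89 in Terc+/+, 11.28, 11.00 and 11.12 in Terc+/-, and 11.13, 11.25 and 11.06 in Terc-/-. All Terc-deficient arrays were higher than all Terc+/+ arrays, which were close together (SD 0.04). The log2 fold change was 0.30 in Terc-/- (SE 0.09, adjusted p = 0.259) and 0.29 in Terc+/- (SE 0.09, adjusted p = 0.386). Of its 3 other probes, the dimmest gave 0.01 in both and the others gave positive values.

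On the lower side, Mrps15, whose bacterial homologue binds the small-subunit RNA early in assembly, had the smallest p. It measured 10.32, 10.30 and 10.35 in Terc+/+, 9.59, 9.89 and 10.13 in Terc+/-, and 10.10, 9.84 and 9.59 in Terc-/-. The Terc+/+ arrays were nearly equal (SD 0.03) and above all others, which were spread more widely. The log2 fold change was -0.48 in Terc-/- (SE 0.16, adjusted p = 0.331) and -0.45 in Terc+/- (SE 0.16, adjusted p = 0.462). It was -0.46 and -0.44 without Terc+/+ replicate 3.

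Mrps6, a small-subunit gene with a bacterial homologue, measured 9.82, 10.40 and 9.87 in Terc+/+, 9.84, 9.58 and 9.58 in Terc+/-, and 9.59, 9.62 and 9.68 in Terc-/-. The Terc-/- arrays lay below all Terc+/+ arrays, while Terc+/- replicate 1 fell inside their range. In Terc-/- its log2 fold change was -0.40 (SE 0.15, adjusted p = 0.409), and in Terc+/- -0.36 (SE 0.15, adjusted p = 0.575). Without Terc+/+ replicate 2, its highest array, these were -0.21 and -0.18.

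**Figure D3:**
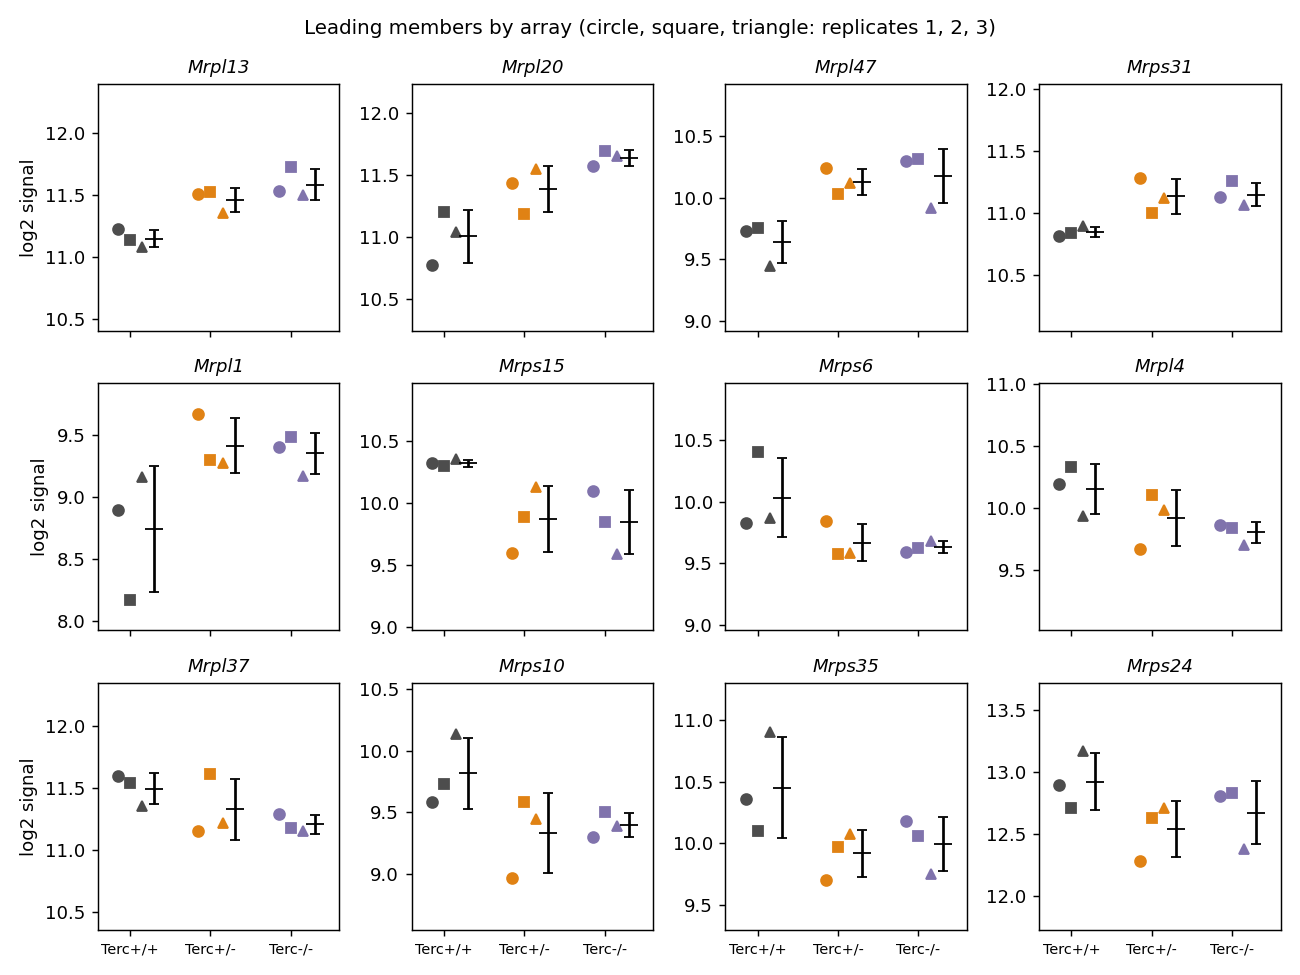
Log2 signal of 12 named genes in each array, by genotype, with circle, square and triangle for replicates 1, 2 and 3 and the mean and SD of the 3 arrays as bars. Each panel has its own vertical range, so levels are not compared between panels. In Mrpl13, Mrpl47, Mrps31, Mrpl1 and Mrps15 the Terc+/+ arrays do not overlap with the other 6, and in Mrps35 and Mrps10 the highest point is Terc+/+ replicate 3.

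Mrps10, Mrps35 and Mrps24 encode further small-subunit proteins, and in each the highest value belonged to Terc+/+ replicate 3. Mrps35 measured 10.35, 10.10 and 10.90 in Terc+/+, 9.70, 9.97 and 10.08 in Terc+/-, and 10.18, 10.06 and 9.75 in Terc-/-. The log2 fold change was -0.53 in Terc+/- (SE 0.21, adjusted p = 0.528) and -0.45 in Terc-/- (SE 0.21, adjusted p = 0.506). Without that array these were -0.31 and -0.23. Mrps10 measured 9.58, 9.73 and 10.13 in Terc+/+, 8.97, 9.59 and 9.45 in Terc+/-, and 9.30, 9.50 and 9.39 in Terc-/-. Its values moved from -0.48 and -0.42 to -0.32 and -0.26 without the array, and its dimmest probe gave 0.07 and 0.01. Mrps24 measured 12.90, 12.70 and 13.17 in Terc+/+, 12.28, 12.62 and 12.71 in Terc+/-, and 12.80, 12.83 and 12.38 in Terc-/-. Its Terc+/- difference of -0.38 was -0.26 without the array. Across the 9 arrays Mrps35 and Mrps24 correlated with the feeder score at -0.69 and -0.70. With that score as a covariate their Terc+/- differences were -0.57 and -0.41, and both passed the threshold (adjusted p = 0.0261 and 0.0482). They were 2 of the 75 genes (2.67%), in a fit that called 1.34% of all features. Neither was called without the covariate, where the adjusted p of Mrps24 was 0.616 in a limma fit over all probes.

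Mrpl4 and Mrpl37 were the large-subunit genes with the smallest p on the lower side in Terc-/-. Mrpl4 has a bacterial homologue that lines the exit tunnel, and Mrpl37 belongs to the proteins found only in mitochondria. Mrpl4 measured 10.19, 10.33 and 9.93 in Terc+/+, 9.67, 10.11 and 9.98 in Terc+/-, and 9.87, 9.84 and 9.70 in Terc-/-. Mrpl37 measured 11.60, 11.54 and 11.35 in Terc+/+, 11.16, 11.61 and 11.22 in Terc+/-, and 11.30, 11.18 and 11.15 in Terc-/-. In both, the Terc-/- arrays lay below all Terc+/+ arrays and the Terc+/- arrays spread over both. The log2 fold changes in Terc-/- were -0.35 for Mrpl4 (SE 0.14, adjusted p = 0.423) and -0.29 for Mrpl37 (SE 0.13, adjusted p = 0.482). Without Terc+/+ replicate 3, the lowest Terc+/+ array of both, they were -0.46 and -0.36. Without the highest Terc+/+ array, replicate 2 for Mrpl4 and replicate 1 for Mrpl37, they were -0.26 and -0.24.

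The values of the Terc-deficient genotypes lay close to each other. In Terc-/- against Terc+/-, 0 of the 75 genes were called in limma, and 0.0% of all features were, with every adjusted p at 1.00. At an unadjusted p under 0.05 there were 0 of the 75 (0.814% of all features higher, 0.943% lower). The differences ran from -0.28 to 0.25, and 73 of the 75 lay within 0.25 of 0 (97.3%, against 92.2% of all features). Mrpl20, Mrps33 and Mrps7 were higher in Terc-/- without overlap (3.76% of all features) and Mrps16 was lower (3.94%). Mrps7 was picked out after its values were seen.

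Mrpl20 led on the higher side with 0.25 (SE 0.13), followed by Mrps33 with 0.17, Mrpl13 with 0.12, Mrpl17 with 0.14 and Mrpl52 with 0.24. On the lower side, Mrpl23 had -0.22 (SE 0.10, unadjusted p = 0.0609), with 10.44, 10.77 and 10.63 in Terc-/- against 10.76, 10.78 and 10.94 in Terc+/-. Mrpl23, whose product lies at the tunnel exit, thus overlapped between the genotypes. It was followed by Mrpl9 (-0.28), Mrps23 (-0.16), Mrpl35 (-0.24) and Mrpl21 (-0.07), the last from a probe near the floor.

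The proteins of the stalk that recruits translation factors showed small differences with both signs. Mrpl10, Mrpl11 and Mrpl12 had log2 fold changes of -0.06, 0.10 and 0.07 in Terc-/- and -0.04, 0.10 and -0.13 in Terc+/-. Those of Mrpl10 were -0.18 and -0.16 without Terc+/+ replicate 3. Mrpl12, whose product has also been reported to bind the mitochondrial RNA polymerase, measured 11.07, 11.21 and 11.56 in Terc+/+, 11.15, 11.33 and 10.96 in Terc+/-, and 11.10, 11.53 and 11.40 in Terc-/-. The 3 genotypes overlapped fully. The sign of its difference for both Terc-deficient genotypes, -0.03, turned with the setting, to 0.11 without Terc+/+ replicate 3.

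At the decoding side of the small subunit, 5 of 7 listed genes had a lower mean in Terc-/- and 5 of 7 in Terc+/-, with Mrps15 among them and 0 called. Mrps12, whose bacterial homologue governs accuracy and streptomycin response, measured 11.28, 11.40 and 11.80 in Terc+/+, 10.98, 11.31 and 11.35 in Terc+/-, and 11.48, 11.19 and 11.09 in Terc-/-. Its differences were -0.24 (SE 0.17, adjusted p = 0.708) in Terc-/- and -0.28 (SE 0.17, adjusted p = 0.743) in Terc+/-. Without Terc+/+ replicate 3, its highest array, they were -0.09 and -0.13. Mrps5, whose homologue also affects accuracy, had -0.28 (SE 0.16) and -0.09 (SE 0.16), with a second probe at -0.56 and -0.12. Without Terc+/+ replicate 3 the values of Mrps5 were -0.42 and -0.23. Its difference for both Terc-deficient genotypes ran from -0.33 to -0.10 when 1 array was left out. Both genes overlapped between genotypes.

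Of the 6 genes listed around the peptidyl-transferase side of the large subunit, Mrpl2, Mrpl16, Mrpl27 and Mrpl33 had a higher mean in both Terc-deficient genotypes, and Mrpl3 and Mrpl4 a lower one, with 0 called. Mrpl33 measured 10.70, 11.37 and 10.24 in Terc+/+, 11.49, 11.29 and 11.14 in Terc+/-, and 11.06, 11.52 and 11.80 in Terc-/-. Its lowest value was Terc+/+ replicate 3, and Terc+/+ replicate 2 lay among the others. The difference in Terc-/- was 0.69 (SE 0.29, adjusted p = 0.451) and 0.43 without that array. The second probe of Mrpl33 gave 0.77 (SE 0.17, adjusted p = 0.167 in a limma fit over all probes). Over the 9 arrays Mrpl33 correlated with the feeder score at 0.75.

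The Mrps18 paralogs offered a comparison between subunits, since the product of Mrps18a is in the large and that of Mrps18b in the small one. Mrps18c had no probe with this symbol and was not analysed here. Mrps18a measured 9.73, 9.95 and 9.97 in Terc+/+, 9.66, 9.94 and 9.91 in Terc+/-, and 9.81, 9.86 and 9.83 in Terc-/-. Mrps18b measured 10.68, 11.00 and 9.67 in Terc+/+, 10.81, 10.64 and 10.37 in Terc+/-, and 10.51, 10.61 and 10.67 in Terc-/-. Mrps18a spanned 0.31 over the 9 arrays and Mrps18b 1.33, with Terc+/+ replicate 3 as its lowest array and replicate 2 as its highest. The differences for both Terc-deficient genotypes were -0.05 for Mrps18a and 0.15 for Mrps18b, the latter turning to -0.24 without that array. Mrps18b had the highest correlation with the feeder score of the 75 genes, 0.80.

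Mrps30, a large-subunit gene despite its name, went the other way in the same array. It measured 11.36, 11.07 and 12.17 in Terc+/+, 11.34, 11.41 and 11.64 in Terc+/-, and 11.60, 11.52 and 11.41 in Terc-/-. Its difference for both Terc-deficient genotypes was -0.04 (SE 0.22) and turned to 0.28 without Terc+/+ replicate 3. Mrps36 measured between 5.35 and 5.63, near the floor, so its difference of -0.13 in Terc-/- (adjusted p = 0.631) is that of a dim probe.

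In humans, variants in MRPL3, MRPS16, MRPS22 and MRPS34 cause combined deficiencies of oxidative phosphorylation. For the mouse genes 0 were called. Their differences in Terc-/- were -0.11 for Mrpl3, 0.19 for Mrps16, -0.07 for Mrps22 and 0.22 for Mrps34, and the smallest adjusted p of these was 0.629. In Terc+/- Mrps16 differed by 0.27 (SE 0.11, adjusted p = 0.558). Mrps16 measured 9.39, 9.79 and 9.43 in Terc+/+, 9.80, 9.80 and 9.81 in Terc+/-, and 9.62, 9.79 and 9.77 in Terc-/-. Its Terc+/- arrays were almost equal (SD 0.01) and above all others, the highest of which was 9.79. Mrpl44 had no probe with this symbol and was not analysed here. Over 15 measured genes of 16 tied to human disease, 8 had a higher mean in Terc-/- and 7 a lower one.

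**Figure D4:**
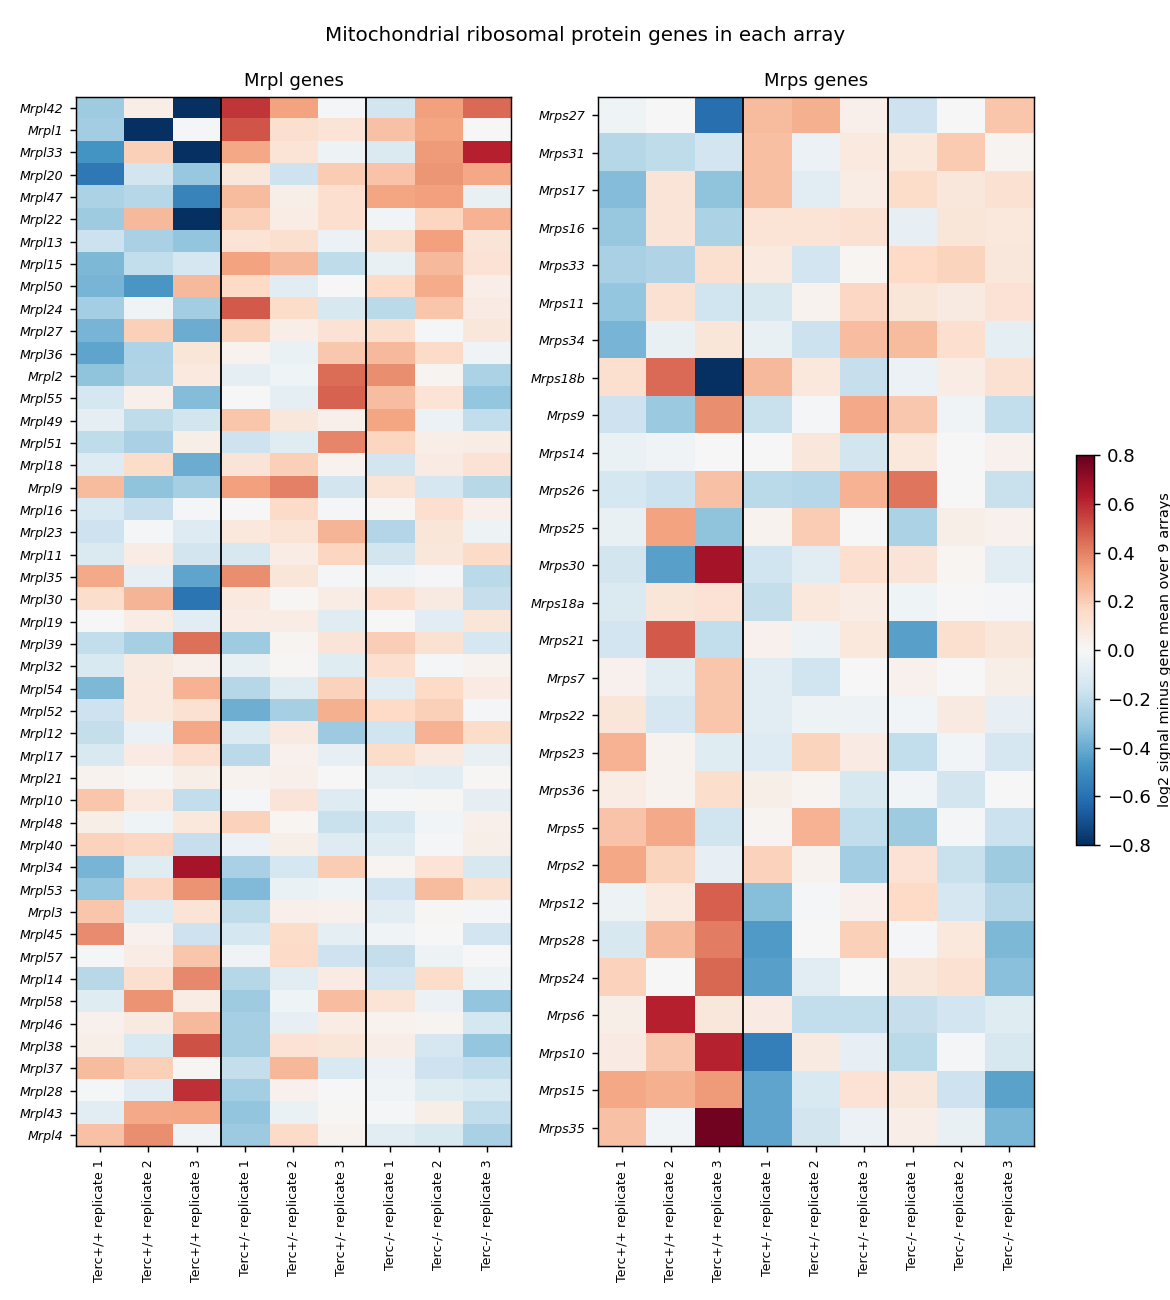
Each row is a gene and each column an array; colour gives log2 signal minus the gene's mean over 9 arrays, drawn to 0.8 on either side and saturated beyond, with Mrpl genes left and Mrps genes right, ordered by the mean difference of both Terc-deficient genotypes from Terc+/+. Terc+/+ replicate 3 holds the highest value of 24 genes, such as Mrps35, and the lowest of 17, such as Mrpl42.

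The widest ranges over the 9 arrays were those of Mrpl42 (1.85, or 3.60-fold), Mrpl33 (1.56), Mrpl1, Mrps18b (1.33) and Mrps35 (1.19). Mrpl42, which encodes a protein found only in mitochondria, measured 9.94, 10.28 and 8.95 in Terc+/+, 10.80, 10.54 and 10.21 in Terc+/-, and 10.07, 10.55 and 10.68 in Terc-/-. Its lowest array was Terc+/+ replicate 3, the array with the lowest feeder score. The difference in Terc-/- was 0.71 (SE 0.34, adjusted p = 0.518) and 0.32 without that array. In 4 of these 5 genes the extreme value belonged to Terc+/+ replicate 3, and in Mrpl1 to replicate 2. The median range of the 69 genes with a mean above 6 was 0.66, against 0.81 for the 9321 features above that level.

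Mrpl50 was the 1 gene that passed the threshold without Terc+/+ replicate 3, and it is named for that after its values were seen. Its product belongs to the proteins found only in mitochondria. Mrpl50 measured 9.94, 9.84 and 10.57 in Terc+/+, 10.47, 10.22 and 10.31 in Terc+/-, and 10.47, 10.61 and 10.36 in Terc-/-. Replicate 3 of Terc+/+ lay among the Terc-deficient arrays and the others below. The difference in Terc-/- was 0.36 (SE 0.18, adjusted p = 0.552), and 0.59 (SE 0.10, adjusted p = 0.0452) without it. With the array left out, 1.54% of all features were called.

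Relations to the feeder score ran in both directions. Across the 9 arrays the median correlation of the 75 genes with the score was -0.14, beside -0.08 over all features. It ran from -0.91 for Mrpl38 to 0.80 for Mrps18b. Each is a description over 9 arrays, which share genotypes and culture conditions. Mrpl38 measured 11.48, 11.30 and 11.94 in Terc+/+, 11.16, 11.54 and 11.53 in Terc+/-, and 11.48, 11.29 and 11.12 in Terc-/-. It was highest in the array with the lowest feeder score and lowest in the array with the highest score.

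Averaged over the 75 genes, the array scores lay close together. Genes that differ in opposite directions cancel in such a mean, and the median of all values was 5.94 in every array. The score therefore says little about single genes, and Mrpl42 alone had a log2 range of 1.85. The mean deviation from each gene's mean was lowest in Terc+/+ replicate 1 (-0.08) and highest in Terc-/- replicate 2 (0.06), a span of 1.10-fold. The feeder score spanned 6.68-fold over the same arrays, and that of 61 cytosolic ribosomal protein genes 1.24-fold. For Terc+/+, Terc+/- and Terc-/- the Mrpl genes averaged -0.06 ± 0.04, 0.03 ± 0.03 and 0.03 ± 0.05 (SD, n = 3 arrays each). The Mrps genes averaged 0.04 ± 0.06, -0.02 ± 0.06 and -0.02 ± 0.05 in the same order. The Mrpl scores of the Terc+/+ arrays were -0.11, -0.02 and -0.06, below those of all 6 other arrays, the lowest of which was -0.01 in Terc-/- replicate 3. The Mrps scores overlapped between the genotypes.

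**Figure D5:**
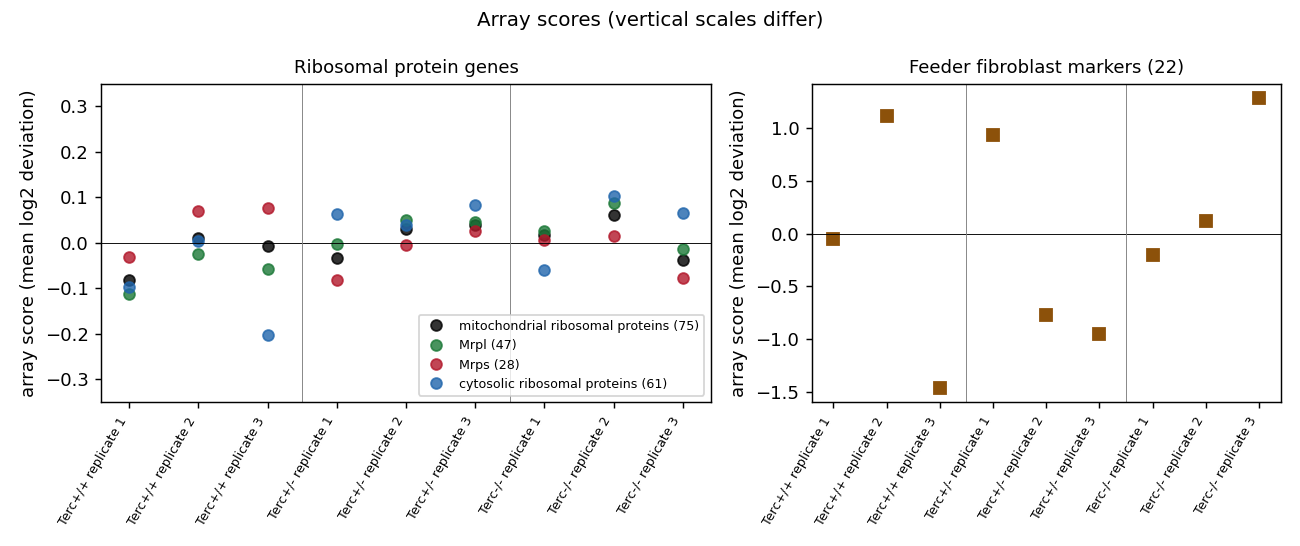
Left, array scores (mean log2 deviation from each gene's 9-array mean) of 75 mitochondrial ribosomal protein genes (black), Mrpl (green), Mrps (red) and 61 cytosolic ribosomal protein genes (blue); right, the score of 22 feeder markers on its own wider scale. The black points stay within -0.08 to 0.06, the feeder scores run from -1.46 to 1.28.

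The genes of the cytosolic ribosome, which translates all other messengers, were the set most like these. Of 61 such genes 42 had a higher mean in Terc-/- than in Terc+/+, with a median of 0.14, and 0 were called (smallest adjusted p = 0.114). The median was 0.08 in Terc+/-. The medians of the mitochondrial genes, 0.03 and -0.02, were lower, a difference that was not tested. The lowest cytosolic score was that of Terc+/+ replicate 3 (-0.20), whereas the mitochondrial score of that array was -0.01.

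The brightest probes were those of Mrps24, Mrpl28, Mrpl17, Mrps30 and Mrpl38, with means from 12.71 to 11.43. Brightness depends on the probe as well as on the transcript, so no order of abundance is read from it. Mrpl28 measured 12.10, 12.03 and 12.70 in Terc+/+, 11.85, 12.15 and 12.11 in Terc+/-, and 12.08, 12.02 and 11.99 in Terc-/-. Its difference was -0.24 in both comparisons with Terc+/+ and -0.03 in both without Terc+/+ replicate 3, its highest array. Mrpl17 differed by 0.03 in Terc-/- and -0.11 in Terc+/-. The dimmest were Mrpl32, Mrpl21, Mrpl19, Mrpl48 and Mrps36, with means from 5.39 to 5.49, and 6 of the 75 genes had a mean below 6. Such probes can hide a difference. The other 69 genes had a mean above 6, a line chosen here and not a measured limit of detection.

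Where a gene had several probes, these did not always agree in sign. Of 22 such genes, 5 disagreed in Terc-/- against Terc+/+ (Mrpl1, Mrpl45, Mrpl48, Mrpl49 and Mrps10), 7 in Terc+/- against Terc+/+ and 11 in Terc-/- against Terc+/-. In Mrps33 both probes had a higher mean in Terc-/- (0.27 and 0.69 against Terc+/+), and in Mrpl37 both were lower, with -0.29 and -0.57.

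Mitochondrial ribosomal proteins with other symbols and the factors that work with the ribosome were examined in the same fit. Of 3 measured small-subunit genes with other names, 0 were called. Ptcd3 and Chchd1 had a higher mean in Terc-/- (0.37 and 0.31) and Dap3 a lower one (-0.30). The differences of Ptcd3 and Dap3 were 0.18 and -0.19 without Terc+/+ replicate 3. Gadd45gip1, of the large subunit, differed by -0.03.

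Of 15 measured translation factors, 12 had a lower mean in Terc-/- and 3 a higher one, with 0 called. The smallest p values on the lower side were those of Tsfm, the elongation factor that recharges Tufm, and C1qbp, a matrix protein that binds mitochondrial messengers. Tsfm measured 9.91, 10.11 and 10.03 in Terc+/+, 9.13, 9.76 and 9.74 in Terc+/-, and 9.42, 9.38 and 9.32 in Terc-/-. C1qbp measured 12.49, 12.13 and 12.59 in Terc+/+, 11.46, 12.04 and 11.74 in Terc+/-, and 11.92, 11.82 and 11.52 in Terc-/-. In both genes every Terc-deficient array lay below every Terc+/+ array, as in 2.88% of all features. The log2 fold changes in Terc-/- were -0.64 for Tsfm (SE 0.16, adjusted p = 0.202) and -0.65 for C1qbp (SE 0.18, adjusted p = 0.239). On the higher side stood the release factors Mtrf1 (0.23) and Mtrf1l (0.28). Without Terc+/+ replicate 3 these were 0.10 and 0.53, and Mtrf1l was 0.06 without replicate 2.

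Of 23 measured assembly factors, 12 had a higher mean in Terc-/- and 11 a lower one, with 0 called. Mpv17l2, an inner-membrane protein needed for ribosome assembly, measured 9.16, 9.37 and 9.96 in Terc+/+, 8.57, 8.77 and 9.02 in Terc+/-, and 8.72, 8.87 and 8.95 in Terc-/-. All Terc-deficient arrays lay below all Terc+/+ arrays, as in 2.88% of all features. The difference was -0.65 in Terc-/- (SE 0.20, adjusted p = 0.297) and -0.42 without Terc+/+ replicate 3, and next was Mettl17 with -0.22. On the higher side stood Trub2, a pseudouridine synthase (0.25), and Ybey, an RNA endonuclease (0.15).

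Of 16 measured genes of mitochondrial transcription and its regulators, 9 had a higher mean in Terc-/- and 7 a lower one, with 0 called. Nrf1, the factor whose letters were searched in the promoters, measured 8.71, 8.48 and 8.61 in Terc+/+, 8.93, 8.95 and 9.05 in Terc+/-, and 8.94, 9.26 and 9.07 in Terc-/-. All 6 Terc-deficient arrays were higher than the 3 others, as in 3.48% of all features. The difference was 0.49 in Terc-/- (SE 0.10, adjusted p = 0.131) and 0.37 in Terc+/- (SE 0.10, adjusted p = 0.298). The 7 genes with NRF1 letters had differences between -0.05 (Mrpl10) and 0.41 (Mrpl22) for both Terc-deficient genotypes. The 8 with YY1 letters ran from -0.32 (Mrps24) to 0.75 (Mrpl42), and the 25 with ETS letters from -0.26 (Mrpl43) to 0.61 (Mrpl33), so each set held both signs. Without Terc+/+ replicate 3 the values were 0.15 for Mrpl22, -0.20 for Mrps24, 0.37 for Mrpl42 and 0.35 for Mrpl33. Tfb2m was next on the higher side (0.47), and Myc (-0.23) and Gabpb1 (-0.57) led on the lower one. Gabpb1 measured 8.67, 7.82 and 9.49 in Terc+/+, and its difference was -0.16 without replicate 3 and -0.99 without replicate 2. Without Terc+/+ replicate 2 that of Tfb2m was 0.18, and without Terc+/+ replicate 1 that of Myc was -0.14.

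Many of the genes start close to a gene on the opposite strand, and whether such pairs share a promoter was not tested. Within 1000 bases, 23 of 66 (34.8%) had a coding gene that starts in the other direction, against 1499 of 17491 coding genes (8.57%). Several partners are mitochondrial too. Mrpl47 is paired with Ndufb5 (a subunit of complex I), Mrps12 with Sars2 (the mitochondrial seryl-tRNA synthetase), Mrpl43 with Twnk (the mitochondrial DNA helicase) and Mrps27 with Ptcd2. Of 19 pairs with both genes measured, counted from each member gene, 8 had the same sign for both Terc-deficient genotypes. Mrpl47 had 0.51 and Ndufb5 -0.08, and Mrps12 had -0.26 and Sars2 -0.10. Mrpl43 had -0.26 and Twnk 0.01.

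Mrpl46 and Mrps11, a large- and a small-subunit gene, start 42 bases apart on opposite strands. Their windows, Mrpl46 at chr7:78783040-78783339, minus strand and Mrps11 at chr7:78782881-78783180, plus strand, share 141 bases. They are shown because 1 stretch of DNA lies in the windows of a gene of each subunit, with the YY1 letters of the Mrps11 window in capitals.
Mrpl46: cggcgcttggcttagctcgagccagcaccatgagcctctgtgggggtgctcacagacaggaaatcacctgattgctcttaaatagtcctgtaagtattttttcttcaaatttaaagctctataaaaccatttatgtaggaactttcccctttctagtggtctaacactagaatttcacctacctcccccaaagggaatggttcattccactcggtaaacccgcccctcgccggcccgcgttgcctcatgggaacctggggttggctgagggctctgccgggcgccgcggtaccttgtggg
Mrps11: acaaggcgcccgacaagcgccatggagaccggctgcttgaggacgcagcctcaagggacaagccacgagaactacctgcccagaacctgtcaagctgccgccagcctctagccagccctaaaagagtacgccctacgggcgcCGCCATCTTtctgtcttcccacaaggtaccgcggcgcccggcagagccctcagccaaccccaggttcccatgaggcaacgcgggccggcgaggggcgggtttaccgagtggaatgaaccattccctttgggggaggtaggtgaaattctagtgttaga
Mrpl46 measured 10.85, 10.89 and 11.08 in Terc+/+, 10.55, 10.75 and 10.88 in Terc+/-, and 10.85, 10.84 and 10.68 in Terc-/-. Mrps11 measured 9.45, 9.88 and 9.60 in Terc+/+, 9.63, 9.79 and 9.93 in Terc+/-, and 9.86, 9.83 and 9.88 in Terc-/-. Mrpl46 was thus lower and Mrps11 higher in mean in the Terc-deficient cells, by -0.18 (SE 0.09, adjusted p = 0.501) and 0.17 (SE 0.10, adjusted p = 0.600). For Mrpl46 the difference was -0.11 without Terc+/+ replicate 3. The 6 Terc-deficient arrays overlapped the Terc+/+ arrays in both genes, although the Terc-/- arrays alone did not in Mrpl46, and neither difference passed the threshold.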

How the data were processed

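RNA of 9 ntESC samples was amplified to biotin-labelled cRNA and hybridised to Illumina bead arrays, per the labels' protocols. The deposited values are on a log2 scale, which was read from the values themselves: they run from 5.11 to 14.8 with a median of 5.94 per array. Which software normalized them, and whether background was subtracted, is not given in the sources used here. Another deposited table holds 18 columns of raw signal and detection values whose names match no sample. They were not used, and the planned normexp correction of raw signals was replaced by the deposited log2 values. Since arrays give no counts, the number of arrays limits the precision.

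Probes were named through their annotation, updated by Entrez ID with RefSeq of GRCm38.p6 (23141 of 25697 probes have 1 symbol, and 0 symbols changed). Promoters come from the same build, while the files name none. The probe with the highest mean stood for a gene, and 2556 unnamed probes were kept, giving 18666 features. limma 3.58.1 (R 4.3.3) fitted the 3 genotypes jointly (lmFit, eBayes) and p-values were adjusted by Benjamini-Hochberg within each comparison. The procedure was tested on simulated data. The text names the genes with the smallest p in each direction and fixed role genes. The members, lists and this rule were chosen with earlier results of these data known. Alternatives were other scalings, filters, probe rules, variance settings, a replicate block, a feeder covariate and leaving out each array. For genes outside the 75, differences without 1 Terc+/+ array are differences of group means with no test, chosen after seeing the data.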

Additional observations from a re-analysis of the deposited data

How the results depend on the processing

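With 3 arrays per genotype the median SE of a log2 fold change was 0.11, and probes near the floor can hide differences. Same-numbered arrays had correlations of their deviations from -0.60 to 0.45, so the numbers do not pair the samples, and with a replicate block 0 features were called in Terc-/- against Terc+/+ (10 without it) and 0 for both Terc-deficient genotypes (36 without it). In Terc-/- against Terc+/+ the features called numbered 24 with cyclic loess, 23 with centring, 5 with the mean of probes, 154 with the feeder covariate and 2999 with array weights. They numbered 0 with a mean above 6, with trend and robust settings and with the compared genotypes only. In Terc+/- against Terc+/+ they numbered 643 with array weights and 250 with the feeder covariate. For both Terc-deficient genotypes they numbered 56 with cyclic loess, 525 with the feeder covariate, 3365 with array weights, and 0 with a mean above 6 and with trend and robust settings. Leaving out 1 array gave 0 to 287, 0 to 28 and 0 to 461 in these comparisons, the highest without Terc+/+ replicate 3.

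Of the 75 genes, array weights called 22 in Terc-/- (29.3%, against 16.1% of features), 2 in Terc+/- (Mrpl20 and Mrpl36; 2.67%, against 3.44%) and 29 for both (38.7%, against 18.0%), with medians of 0.11, 0.0838 and 0.12. The feeder covariate called 2 in Terc+/- (Mrps24 and Mrps35; 2.67%, against 1.34% of features) and 1 for both (Mrps35; 1.33%, against 2.81%). Leaving out 1 array called 0 to 1 in Terc-/- and 0 to 1 for both (Mrpl50; 1.33%, against 1.54% and 2.47% of features). The medians then ran from -0.0078 to 0.04 in Terc-/-, -0.0218 to 0.0411 in Terc+/-, -0.0143 to 0.0442 in Terc-/- against Terc+/-, and -0.02 to 0.03 for both. Signs turned for both Terc-deficient genotypes in Mrpl10 (-0.17 to 0.0450 leaving out 1 array), Mrpl12 (0.21 with array weights, -0.14 to 0.11), Mrps18a (0.10 with array weights), Mrps18b (-0.0772 with array weights, -0.24 to 0.43) and Mrps30 (0.13 with array weights, 0.0109 with the feeder covariate, -0.28 to 0.28). The cause was not tested.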
